A study of Mus musculus with 10 samples.

Results

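Naive CD8 T cells of wild-type mice were compared with naive CD4 T cells of wild-type mice by RNA sequencing, over all genes of the deposited count table. The members are the 2 libraries of wild-type CD8 cells (WT CD8) and the 2 of wild-type CD4 cells (WT CD4), 4 of the 10 libraries in the table, chosen by the column names. All cells came from spleens of mice aged 6 weeks and were sorted directly into lysis reagent as T cell receptor beta-positive cells that lacked CD25 and CD44, and CD4 and CD8 then separated the groups. The wild-type groups are labelled with no mutant allele and no agent. The other 6 libraries, 2 in each group, are from mice homozygous for OB11, an allele whose change the labels do not describe, sorted as cells with high CD4 (CD4hi), with CD4 and CD8 (DP) and with low CD4 (CD4lo). Whether the libraries of 1 group came from separate animals is not labelled, so p-values rest only on the spread between libraries. For each gene 1 spread within groups was estimated over all 10 libraries. The titles of both WT CD4 libraries carry a mark L and those of both WT CD8 libraries do not. The labels do not explain the mark, it lies with whole groups, and for WT CD8 against WT CD4 the mark and the cell type cannot be told apart.

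CD4 and CD8 T cells arise in the thymus from a common precursor that carries both coreceptors. CD4 binds MHC class II and marks helper and regulatory cells, and CD8 binds MHC class I and marks cells that become cytotoxic. The zinc finger factor ThPOK, encoded by Zbtb7b, directs the CD4 choice and represses the CD8 program, while Runx3 silences Cd4 and Zbtb7b in CD8 cells. The series title is about the autoregulatory loop of ThPOK.

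The libraries held 5055956 and 7288738 counts in WT CD8 and 5626750 and 6944197 in WT CD4. The second WT CD4 library stood apart, with 25272 genes detected against 16428 in the first and 16554 and 17132 in WT CD8; CD4hi 1 was the only other library above 17345, with 23545. Genes with at most 2 counts in total over the 8 libraries other than WT CD4 2 and CD4hi 1 were also picked out. They held 0.279% of the counts of WT CD4 2 and 0.203% of those of CD4hi 1. Their share in WT CD4 1, 0.0152%, was held low by that choice and is no comparison. Levels are CPM, counts scaled by library size, after TMM scaling for composition, and in pairs of values set against each other WT CD8 libraries 1 and 2 come first and WT CD4 libraries 1 and 2 second. Differences are log2 fold changes ± SE from an edgeR fit of all 10 libraries, with n = 2 per group. The SE is the absolute log2 fold change divided by the square root of the F statistic of its test. For genes of few counts in a group it can be smaller than the shift when a library is left out. "Called", "rose" and "fell" mean a Benjamini-Hochberg adjusted p below 0.05 over the 12193 genes tested, and the direction is that of WT CD8 relative to WT CD4. Unless another value is given beside it, a called gene named here kept its direction and its call when each of the 4 wild-type libraries was left out in turn, and its fold change moved by less than 1.5 times.

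Between WT CD8 and WT CD4, 2651 of 12193 genes were called, 21.7% of those tested, with 1356 higher (11.1%) and 1295 lower (10.6%) in WT CD8, and 1058 (8.68%) were called with at least a 2-fold difference. Without WT CD4 2 and CD4hi 1 the count was 2392, of which 2001 were among the 2651. It was 1712 without WT CD8 1 and 1411 without WT CD8 2. The median log2 fold change over all genes tested was -0.03. Counts of list members given below stand beside these shares of 11.1% higher and 10.6% lower. A list share near them is no result about the members. Both libraries of one group lay beyond both of the other at 59.7% of genes, with WT CD8 above at 28.8% and below at 30.9%. The wild-type libraries were also placed beside the other 3 groups. These are all from OB11 mice, so a position beside them does not tell which wild-type group changed. For 1296 called genes (48.9%) both WT CD4 libraries lay outside the range of all 8 others while WT CD8 did not stand apart, for 532 (20.1%) WT CD8 alone lay outside, for 356 (13.4%) both groups did and for 467 (17.6%) neither did. Over all genes tested both WT CD4 libraries lay outside that range in 23.2% and both WT CD8 libraries in 12.9%. The choice of called genes favours such positions, so these shares describe the called genes and are not a test. Among the called genes 334 (12.6%, 4.84% of all tested) had the 4 libraries with the L mark all on one side of the 6 without it.

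**Figure D1:**
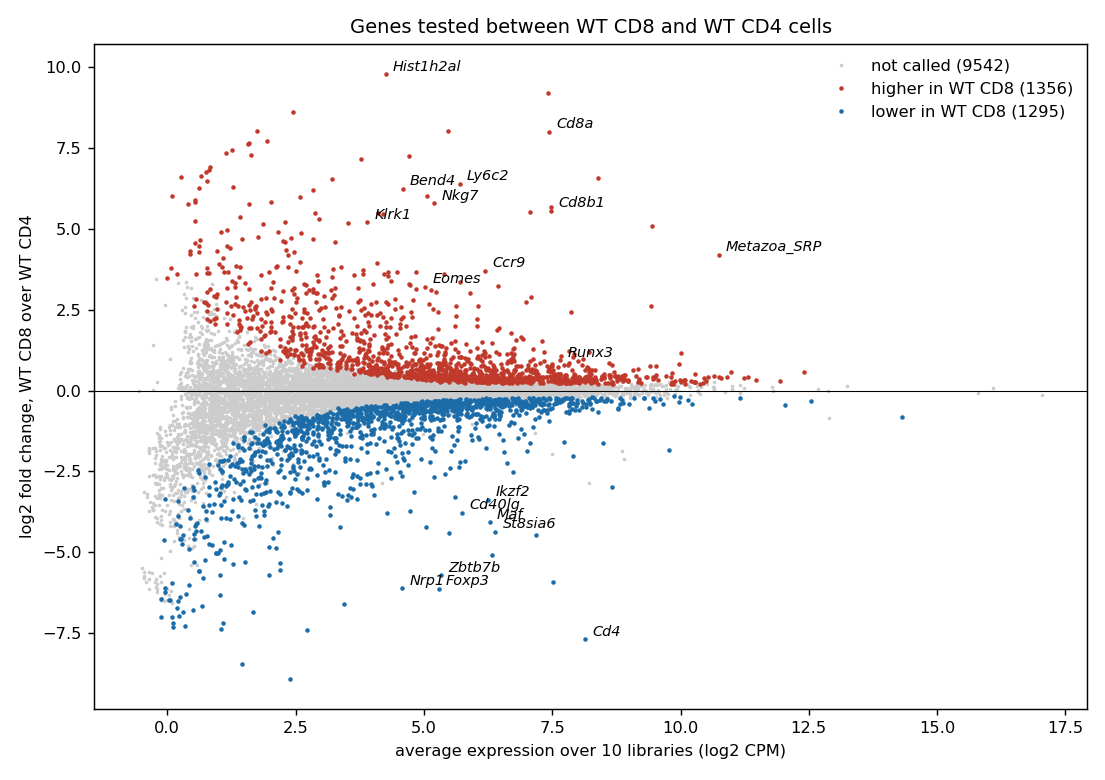
Log2 fold change of WT CD8 over WT CD4 (y axis) against the average expression of each gene over 10 libraries in log2 CPM (x axis); each point is 1 of 12193 genes, red for 1356 called higher, blue for 1295 called lower and grey for the rest. Cd8a and Cd8b1 lie far above and Cd4 and Zbtb7b far below zero at high expression.

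The coreceptor genes, on which the cells were sorted, checked the labels. Cd4 stood at 1.75 and 4.03 against 612 and 671 CPM (-7.70 ± 0.18; -8.49 without WT CD8 2). Cd8a stood at 601 and 606 against 0.711 and 3.61 CPM (8.01 ± 0.23; 7.39 without WT CD4 1 and 9.69 without WT CD4 2) and Cd8b1, the beta chain, at 516 and 524 against 11.7 and 10.3 CPM (5.57 ± 0.12). The groups did not overlap at these genes, which the sort used, so their levels are a description of the sort. In the GENCODE annotation of build mm10 Cd4 lies on chromosome 6 (124864692 to 124888221), Cd8a at 71373427 to 71379173 and Cd8b1 at 71322788 to 71337494 of the same chromosome, Zbtb7b on chromosome 3 (89377644 to 89394776) and Runx3 on chromosome 4 (135120652 to 135177990). All 5 are annotated as coding for proteins.

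Among the transcription factors of T cell lineage choice, Zbtb7b stood at 2.72 and 2.96 against 158 and 145 CPM and had the lowest fold change of the list (-5.72 ± 0.14, adjusted p = 1.72e-12). The CD4hi libraries held 27.7 and 28.0 CPM of it, between the wild-type groups. Runx3 stood at 235 and 244 against 131 and 119 CPM and rose (0.94 ± 0.08, adjusted p = 4.95e-07), with WT CD4 below all 8 other libraries. Runx1, the related factor that silences Cd4 in thymocytes, went the other way, at 47.7 and 46.1 against 89.0 and 90.0 CPM (-0.93 ± 0.09), with WT CD8 below and WT CD4 above every other library. Gata3, a zinc finger factor needed for CD4 development, stood at 35.1 and 29.6 against 63.6 and 55.3 CPM (-0.89 ± 0.11). Maf, a factor of helper T cells that controls IL-21 and IL-10, stood at 4.07 and 4.57 against 80.1 and 68.4 CPM (-4.08 ± 0.13), and WT CD8 lay below all 8 other libraries at both genes. The nuclear receptor gene Nr4a1, a target of T cell receptor signals, stood at 12.2 and 14.5 against 35.7 and 31.5 CPM (-1.31 ± 0.14). Prdm1, which encodes Blimp-1, stood at 1.94 and 1.34 against 8.17 and 10.1 CPM (-2.51 ± 0.29), and Irf4 at 16.5 and 14.6 against 37.9 and 35.01 CPM (-1.23 ± 0.12).

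The factors that rose in WT CD8 cells included both T-box factors of effector and memory cells. Eomes stood at 47.1 and 45.7 against 4.98 and 5.002 CPM (3.21 ± 0.17, adjusted p = 3.62e-09) and Tbx21, which encodes T-bet, at 11.1 and 13.2 against 1.78 and 1.39 CPM (2.95 ± 0.28). WT CD4 was the group that stood apart at both, since the 6 libraries from OB11 mice held 26.5 to 50.4 CPM of Eomes and 5.91 to 13.3 CPM of Tbx21. Ikzf3, which encodes the lymphoid factor Aiolos, stood at 299 and 316 against 162 and 153 CPM (0.97 ± 0.08), and Zbtb7a, the closest relative of Zbtb7b, at 149.8 and 150.0 against 105 and 96.1 CPM (0.58 ± 0.07). Irf8 (1.53 ± 0.23), Myb (0.70 ± 0.12), Id2 (0.53 ± 0.12), Stat4 (0.49 ± 0.09) and the E protein gene Tcf12 (0.49 ± 0.10) rose, and Id3 (-1.26 ± 0.19), Sox4 (-1.09 ± 0.22) and Bcl11b (-0.37 ± 0.07) fell. The level of the homeobox factor Hhex rested on few counts (3.63 ± 0.98, and 2.84 without WT CD4 1 and 7.26 without WT CD4 2), and its call was lost without WT CD8 1, without WT CD8 2 and without WT CD4 1. Tox2 fell (-2.81 ± 0.41; -3.49 without WT CD8 1 and -2.18 without WT CD8 2). Of the 42 tested factors on the list, 12 rose (28.6%) and 17 fell (40.5%), with a median of 0.00. Foxo1 (-0.05 ± 0.09), Bach2 (0.03 ± 0.09), Satb1 (-0.03 ± 0.06) and Lef1 (0.15 ± 0.06), factors of the naive state, did not pass the test.

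**Figure D2:**
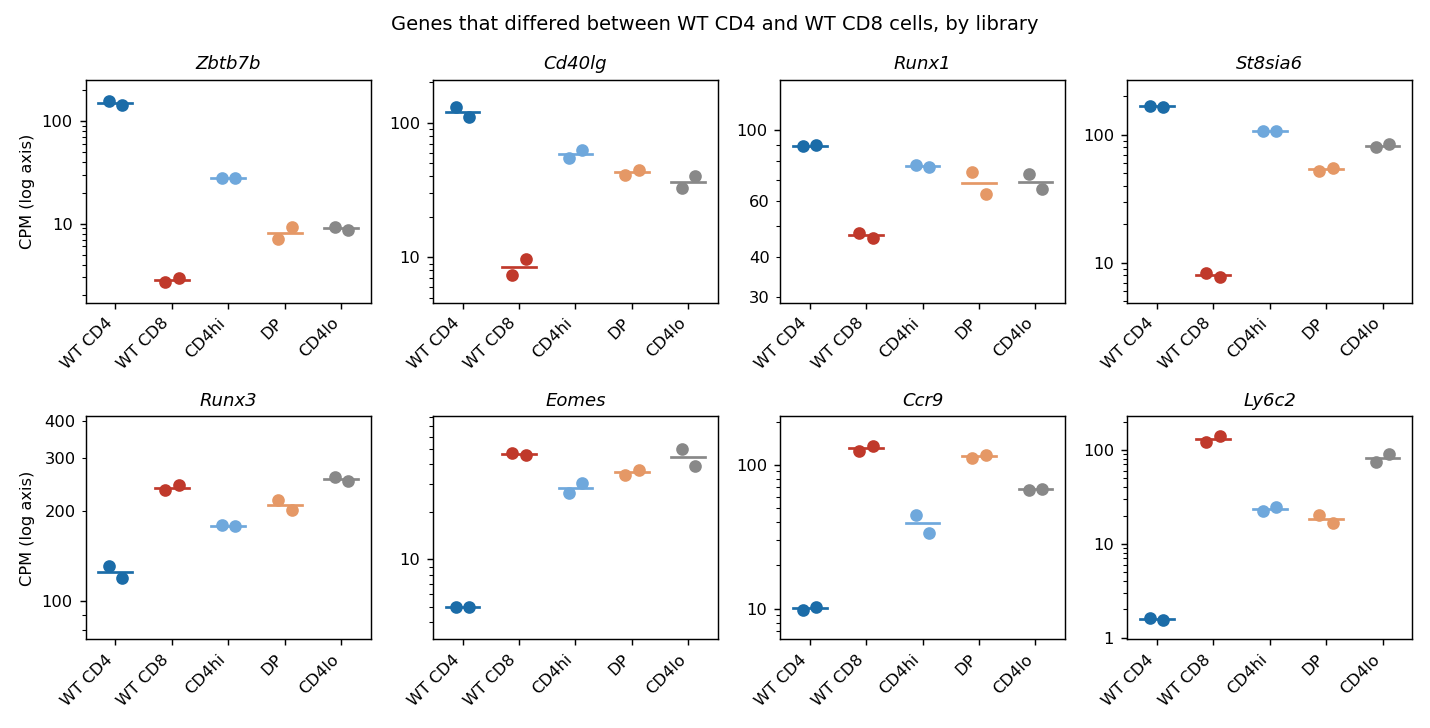
CPM on a log axis (y) of 8 genes in the 2 libraries (points) and their mean (line) of each of the 5 groups (x). Zbtb7b, Cd40lg, Runx1 and St8sia6 were highest in WT CD4 and lowest in WT CD8, and at Runx3, Eomes, Ccr9 and Ly6c2 WT CD4 lay below every other library.

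The 15 highest and 15 lowest fold changes were taken among called genes of at least 3 in average log2 CPM whose groups did not overlap. Beside the coreceptors and genes described elsewhere, the lowest held St8sia6, a sialyltransferase, at 8.34 and 7.79 against 169 and 165 CPM (-4.37 ± 0.10), and Cd40lg, the helper ligand CD154, at 7.37 and 9.68 against 130.2 and 111 CPM (-3.79 ± 0.15). Myo10, an unconventional myosin, stood at 2.91 and 4.03 against 48.2 and 50.02 CPM (-3.78 ± 0.18). The cytolinker gene Dst had 5.04 and 4.03 against 52.2 and 66.4 CPM (-3.73 ± 0.21). WT CD4 lay above and WT CD8 below every other library at these 4 genes. The muscle protein gene Ttn had 2.33 and 5.78 against 67.0 and 94.1 CPM (-4.22 ± 0.24, -5.09 without WT CD8 2) and Crmp1 had 0.194 and 0.672 against 5.86 and 6.11 CPM (-3.61 ± 0.47, -4.80 without WT CD8 2).

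Among the highest, Bend4, a BEN domain gene, stood at 64.8 and 68.1 against 0.888 and 0.834 CPM (6.24 ± 0.20). The endoplasmic reticulum protein gene Rcn3 had 41.1 and 31.2 against 1.78 and 2.78 CPM (3.93 ± 0.24). At both genes WT CD8 lay above and WT CD4 below every other library. Eng, a coreceptor for TGF-beta, had 18.0 and 17.2 against 0.355 and 1.95 CPM (3.81 ± 0.38; 3.18 without WT CD4 1 and 5.55 without WT CD4 2), Wnt5b 15.5 and 12.4 against 0.355 and 1.53 CPM (3.75 ± 0.41; 5.20 without WT CD4 2), Samd3 21.1 and 17.7 against 0 and 1.39 CPM (4.61 ± 0.48; 3.79 without WT CD4 1 and 9.90 without WT CD4 2) and Pianp 7.57 and 10.3 against 0 and 0.139 CPM (6.54 ± 0.59; 5.86 without WT CD4 1 and 8.82 without WT CD4 2). Few counts stood behind the WT CD4 side of these 4 genes, and their size rests on which WT CD4 library is used.

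Some of the largest differences were at members of families with near-identical copies, where the authors' counting could split reads. The replication histone gene Hist1h2al had no count in either WT CD4 library and 99 and 120 counts in WT CD8. That is at least 74.3-fold higher with 3 counts over the WT CD4 libraries as the bound. Its level was 19.2 and 16.1 CPM in WT CD8 and 19.7 to 32.4 CPM in the 6 libraries from OB11 mice, so WT CD4 alone stood apart. Trim30c, of a cluster of interferon-regulated TRIM genes, stood at 22.9 and 26.7 against 0.178 and 0.139 CPM (7.15 ± 0.37). Ly6c2, of the Ly6 surface proteins, stood at 122 and 142 against 1.599 and 1.53 CPM (6.39 ± 0.19), while its neighbour Ly6c1 went the other way, at 4.27 and 4.30 against 23.6 and 25.7 CPM (-2.52 ± 0.24). The small RNA family entry Metazoa_SRP held 2839.5 and 1997 against 128 and 133 CPM (4.21 ± 0.16); it followed the L mark, with 126 to 170.5 CPM in the 4 marked libraries and 1997 to 3554 CPM in the 6 others.

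At the T cell receptor and its proximal signalling chain, WT CD8 cells held less RNA of the costimulatory receptor Cd28, at 67.9 and 74.6 against 173 and 193 CPM (-1.36 ± 0.09, adjusted p = 3.77e-08), and of Cd5, an inhibitory receptor whose level tracks self-reactivity, at 107 and 111 against 215 and 205 CPM (-0.95 ± 0.08). The adhesion receptor gene Cd2 stood at 232 and 215 against 347 and 328 CPM (-0.59 ± 0.07), and Tespa1, a thymocyte signalling adaptor, at 54.5 and 56.2 against 91.0 and 92.5 CPM (-0.73 ± 0.08). The levels of the CD3 chains Cd3e (0.15 ± 0.08) and Cd3g (-0.23 ± 0.13) and of the kinase Zap70 (-0.25 ± 0.09) did not pass the test. Lck, the kinase that binds both coreceptors, stood at 327 and 324 against 439.8 and 382 CPM (-0.34 ± 0.08, adjusted p = 0.00962), a call that was lost without WT CD8 1, without WT CD8 2 and without WT CD4 1. Higher in WT CD8 were the scaffold Gab3 (1.22 ± 0.20), the kinase Tec (1.05 ± 0.21), the adaptor Sla2 (0.56 ± 0.10), the phosphatase Ptpn22 (0.49 ± 0.07) and Themis (0.42 ± 0.08). In all, 7 of 33 tested genes rose and 12 fell, with a median of -0.21, and 5, 4 and 6 fell without WT CD8 1, WT CD8 2 and WT CD4 1 in turn.

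Further along the receptor's pathways, the Ras activator Rasgrp1 stood at 244 and 240.0 against 338 and 343 CPM (-0.49 ± 0.07) and the Ras inhibitor Rasa1 at 90.2 and 102 against 164 and 143 CPM (-0.67 ± 0.09), both lower in WT CD8. The lipid phosphatase Inpp4b (-0.56 ± 0.06), the kinase Prkca (-0.65 ± 0.08) and the ERK phosphatase Dusp5 (-1.003 ± 0.13) fell, and the PI3K subunit Pik3cd rose, from 384 and 378 CPM in WT CD4 to 517 and 525 CPM in WT CD8 (0.45 ± 0.06). Of 38 tested members 4 rose and 9 fell, and 1, 1, 2 and 2 rose without WT CD8 1, WT CD8 2, WT CD4 1 and WT CD4 2. Ion channels and purine receptors gave 3 higher (11.1%, the same share as of all genes tested) and 10 lower (37.0%) of 27 (median -0.23). The potassium channel Kcnn4 stood at 75.5 and 68.7 against 149.6 and 131 CPM (-0.96 ± 0.09) and the ATP-gated channel P2rx7 at 18.4 and 21.1 against 42.8 and 43.3 CPM (-1.11 ± 0.11). Both enzymes that turn ATP into adenosine at the cell surface fell, Entpd1, which encodes CD39 (-2.02 ± 0.28), and Nt5e, which encodes CD73, at 17.7 and 19.1 against 51.5 and 52.5 CPM (-1.50 ± 0.11). The calcium channel subunit gene Orai2 rose (0.57 ± 0.07).

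Cytokine receptors and STAT signalling genes went both ways, 12 higher (28.6%) and 12 lower (28.6%) of 42 tested. Il2rb, the beta chain shared by the IL-2 and IL-15 receptors, stood at 157 and 137 against 78.0 and 78.5 CPM (0.90 ± 0.09, adjusted p = 6.21e-06). Its partner Il2rg (0.09 ± 0.09) and Il7r (-0.15 ± 0.07) did not pass the test. Both chains of the IL-18 receptor rose, Il18r1 at 98.8 and 109.9 against 65.2 and 59.3 CPM (0.75 ± 0.10) and Il18rap at 27.0 and 27.1 against 1.24 and 6.67 CPM (2.67 ± 0.35; 2.04 without WT CD4 1 and 4.42 without WT CD4 2). WT CD4 lay below all 8 other libraries at Il2rb, Il18r1 and Il18rap. Il2ra, which encodes the CD25 that the sort selected against, stood at 3.88 and 3.36 against 73.0 and 80.2 CPM (-4.42 ± 0.18). Receptors of the TGF-beta family that fell included the following: Tgfbr3 stood at 64.4 and 58.3 against 128 and 129 CPM (-1.07 ± 0.08), Tgfbr1 at 23.9 and 26.6 against 47.1 and 45.2 CPM (-0.86 ± 0.11), Tgfbr2 at 285 and 275 against 421 and 417 CPM (-0.58 ± 0.07) and Acvrl1 at 10.3 and 8.87 against 23.99 and 24.5 CPM (-1.35 ± 0.17). Il4ra (-0.66 ± 0.07), Il6ra (-0.59 ± 0.08) and the STAT5-induced inhibitors Cish (-1.31 ± 0.18) and Socs2 (-3.51 ± 0.59) fell as well. Ifngr1 (0.51 ± 0.10), Il10rb (0.54 ± 0.12), Il27ra (0.36 ± 0.08) and Socs3 (0.60 ± 0.09) rose.

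Of 34 tested chemokine receptors and trafficking genes 10 rose (29.4%) and 9 fell (26.5%). Ccr9, which guides lymphocytes to the small intestine, stood at 125 and 136 against 9.77 and 10.3 CPM (3.70 ± 0.13, adjusted p = 5.01e-11), and Itgae, the CD103 integrin chain that binds epithelial E-cadherin, at 92.2 and 97.4 against 26.5 and 23.2 CPM (1.94 ± 0.10). Itgae also followed the L mark, with the 4 marked libraries at 23.2 to 63.8 CPM and the 6 others at 92.2 to 145 CPM. Cxcr6 (2.75 ± 0.24) and Cxcr3 (1.54 ± 0.22), receptors of tissue and inflammatory homing, rose. Lower in WT CD8 were Ccr4, a receptor of skin-homing and regulatory CD4 cells, at 0.776 and 0.538 against 7.82 and 10.7 CPM (-3.83 ± 0.35), and the integrin chain Itgb3, at 22.1 and 22.7 against 102 and 101 CPM (-2.18 ± 0.09). Itga6 (-0.86 ± 0.07), the oxysterol receptor Gpr183 (-0.88 ± 0.10) and Cd44, which encodes the CD44 of the sort, at 37.8 and 38.0 against 80.7 and 77.4 CPM (-1.06 ± 0.08), fell. Ccr8 had 0 and 1 counts in WT CD8 and 4.44 and 3.33 CPM in WT CD4 (-5.31 ± 1.04; -4.65 without WT CD8 1 and -7.58 without WT CD8 2). The integrin genes Itgal (-0.12 ± 0.07), Itga4 (-0.15 ± 0.07) and Itgb1 (-0.11 ± 0.08) did not pass the test.

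Enzymes that build the sugar coat of the cell differed in a gene-specific way. Of 40 tested 10 were higher (25%) and 12 lower (30%), with a median of 0.02. Sialyltransferases, which add sialic acid to the ends of glycan chains, were among them. Of those that link sialic acid to sialic acid, St8sia6 is given above, St8sia1 stood at 83.2 and 87.8 against 188 and 156 CPM (-1.01 ± 0.09) and St8sia4 at 59.8 and 66.8 against 119 and 114 CPM (-0.87 ± 0.08). The alpha-2,6 enzyme gene St6gal1 stood at 95.1 and 92.3 against 160.3 and 153 CPM (-0.74 ± 0.08). The alpha-2,3 enzymes split, since St3gal2 (-2.68 ± 0.21) and St3gal1 (-0.54 ± 0.08) fell and St3gal3 (1.59 ± 0.29), St3gal4 (0.97 ± 0.16) and St3gal6 (0.79 ± 0.15) rose. Cmah, which makes the glycolyl form of sialic acid, stood at 423 and 437 against 179 and 200.1 CPM (1.18 ± 0.08, adjusted p = 4.41e-08), with WT CD8 above and WT CD4 below every other library. The O-glycan starter Galnt10 stood at 41.5 and 45.02 against 130.1 and 121 CPM (-1.53 ± 0.11) and Galnt6 at 194 and 188 against 315 and 294 CPM (-0.67 ± 0.07); at both, WT CD4 alone lay above the rest. Chst15 (1.42 ± 0.10), B4galt5 (0.87 ± 0.11), the ganglioside enzyme B4galnt1 (0.59 ± 0.07) and B3gnt5 (1.79 ± 0.26; 2.51 without WT CD4 1) rose, and Man1c1 (-1.47 ± 0.26) fell.

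**Figure D3:**
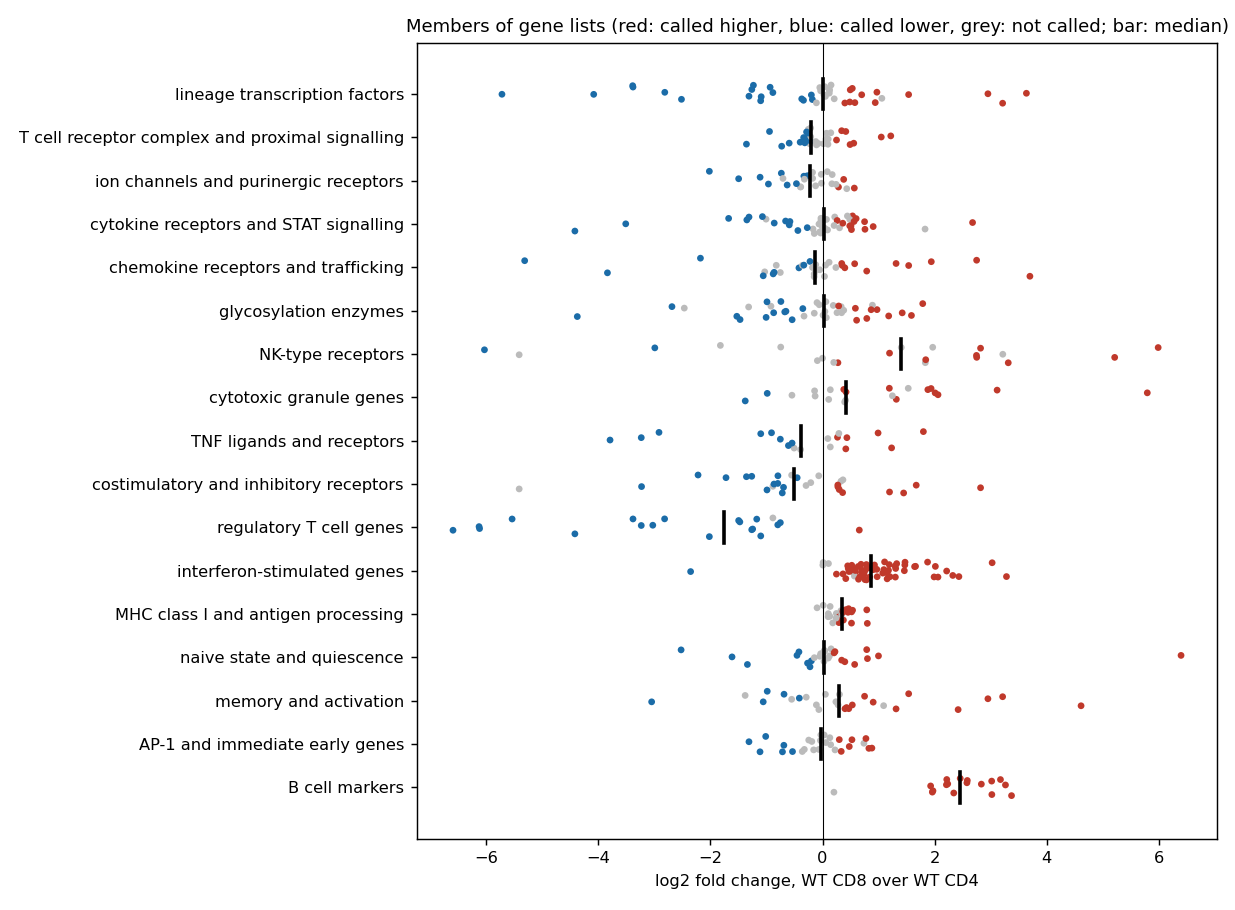
Log2 fold change of WT CD8 over WT CD4 (x axis) for the tested members of 17 gene lists (y axis); red points were called higher, blue points lower, grey points not called, and the black bar is the median. Regulatory T cell genes lie mostly to the left, and interferon-stimulated genes and B cell markers to the right.

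Among receptors of NK cell type and genes of cytotoxic granules, more were called higher than lower in WT CD8, though under 50% of each list was called higher. Of 21 tested receptors 9 rose and 2 fell (median 1.40), and of 21 granule genes 10 rose and 2 fell (median 0.42). The lower share of each list was 9.52%, against 10.6% of all genes tested. Of the receptors that fell, 1 was called without WT CD8 1, 3 were called without WT CD4 1 and none without WT CD8 2 or without WT CD4 2. Klrk1, which encodes the activating receptor NKG2D, stood at 18.2 and 23.2 against 0.711 and 0.417 CPM (5.21 ± 0.29, adjusted p = 8.71e-09) and Klrd1, the CD94 chain of NKG2 receptors, at 25.8 and 29.6 against 4.09 and 4.17 CPM (2.74 ± 0.18). Klrc1, an NKG2A gene, had 0 and 1 counts in WT CD4 (5.98 ± 0.76; 5.30 without WT CD4 1 and 8.26 without WT CD4 2). Cd160 stood at 12.8 and 14.6 against 1.42 and 2.36 CPM (2.82 ± 0.29), Crtam at 33.0 and 30.6 against 1.95 and 4.17 CPM (3.31 ± 0.24; 4.01 without WT CD4 2) and the adhesion receptor gene Cd226 at 94.3 and 101 against 48.0 and 37.8 CPM (1.19 ± 0.11). Slamf7 had 7.76 and 7.79 against 0.888 and 3.20 CPM (1.84 ± 0.34; 3.10 without WT CD4 2). WT CD4 lay below all 8 other libraries at each of these 7 genes, while WT CD8 did not stand apart.

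In the granule list, Nkg7 stood at 88.7 and 78.3 against 2.13 and 0.973 CPM (5.79 ± 0.23; 6.41 without WT CD4 1), the cathepsin gene Ctsw at 95.6 and 101 against 20.6 and 27.9 CPM (2.01 ± 0.13) and perforin, Prf1, at 47.7 and 54.2 against 21.3 and 19.9 CPM (1.32 ± 0.12). The protease inhibitor gene Cst7 stood at 28.7 and 34.3 against 8.35 and 8.20 CPM (1.94 ± 0.17), and granzyme B, Gzmb, was low, at 2.72 and 4.17 against 0.355 and 0.417 CPM (3.11 ± 0.50). Rab27a, which docks granules at the membrane, went the other way, at 37.4 and 35.7 against 91.2 and 98.5 CPM (-1.38 ± 0.08). Without WT CD8 2, 6 granule genes rose, and with any 1 wild-type library left out 1 fell. The chemokine Ccl5 stood at 47.0 and 51.3 against 4.80 and 4.72 CPM (3.37 ± 0.14). Of 19 tested chemokines and cytokines 4 rose and 7 fell. Those that fell included Penk, the enkephalin precursor, with 0 and 2 counts in WT CD8 and 6.75 and 7.36 CPM in WT CD4 (-5.32 ± 0.59; -4.61 without WT CD8 1 and -8.44 without WT CD8 2), and Il21, with 0 and 1 counts in WT CD8 (-4.57 ± 0.79; -3.92 without WT CD8 1 and -6.86 without WT CD8 2). Of the list, 2 rose without WT CD8 1 and without WT CD4 1, and 4, 3 and 4 fell without WT CD8 1, WT CD8 2 and WT CD4 2. NK cell markers summed to 140.8 and 128.6 CPM in WT CD8 and 11.6 and 13.2 CPM in WT CD4, with 2 higher and 2 lower of 8 tested (none lower without WT CD8 2 or without WT CD4 2). Nkg7 and Eomes made up most of that sum, while the receptor gene Ncr1 had 1 and 0 counts and Klrb1c had none in WT CD8, and the adaptor gene Tyrobp stood at 0.776 and 1.48 against 1.07 and 0.973 CPM.

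Receptors and ligands of the TNF family gave 6 higher (31.6%) and 8 lower (42.1%) of 19 (median -0.39). Costimulatory and inhibitory receptors gave 8 higher (28.6%) and 12 lower (42.9%) of 28 (median -0.50). Tnfrsf4, which encodes OX40, stood at 3.69 and 2.69 against 33.4 and 25.7 CPM (-3.23 ± 0.22) and Tnfsf11, which encodes RANKL, at 1.94 and 1.21 against 12.3 and 10.98 CPM (-2.92 ± 0.28). Pdcd1, the PD-1 receptor gene, stood at 1.16 and 0.941 against 8.71 and 10.8 CPM (-3.23 ± 0.29), Ctla4 at 16.3 and 18.3 against 44.6 and 39.2 CPM (-1.26 ± 0.11) and Icos at 22.7 and 27.4 against 45.5 and 42.7 CPM (-0.80 ± 0.10). Cd200r1 (-2.22 ± 0.35), Cd200 (-1.72 ± 0.25), Btla (-0.70 ± 0.10), Slamf1 (-0.72 ± 0.14), Cd27 (-0.54 ± 0.09), Tnfrsf1b (-0.61 ± 0.10) and Tnfrsf18, the GITR gene (-0.75 ± 0.14), fell. Tnfrsf14, the ligand of BTLA, rose, from 30.7 and 28.2 CPM in WT CD4 to 69.5 and 68.7 CPM in WT CD8 (1.23 ± 0.09); it followed the L mark, as did Itgb3, Gpr183, Cxcr3, Vipr1, Hdac7, Gimap7, Pmaip1 and Mcm6. Cd7 (1.67 ± 0.18) and Cd86 (1.45 ± 0.19) rose. The 6 higher TNF family genes were 1, 2 and 1 without WT CD8 1, WT CD8 2 and WT CD4 2, and the 8 higher costimulatory genes were 5 without WT CD8 2.

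Regulatory T cell genes were lower in WT CD8, 18 of 20 tested, with 1 higher and a median of -1.76. In sorted bulk cells, fewer cells of a type and less RNA per cell cannot be told apart. The sort removed cells with surface CD25, and the WT CD4 libraries still held Foxp3, the defining factor of regulatory T cells, at 75.2 and 82.5 CPM against 1.36 and 0.941 CPM in WT CD8 (-6.12 ± 0.20, adjusted p = 1.85e-11). CD4hi libraries held 72.3 and 89.1 CPM and CD4lo libraries 1.47 and 1.17 CPM. Nrp1 stood at 0.970 and 0.806 against 63.6 and 60.3 CPM (-6.11 ± 0.19). Lrrc32, the TGF-beta docking receptor GARP, had 1 and 2 counts in WT CD8 and 24.7 and 24.9 CPM in WT CD4 (-6.59 ± 0.38). Ikzf2, which encodes Helios, stood at 10.7 and 9.14 against 108 and 96.6 CPM (-3.38 ± 0.13) and Ikzf4, which encodes Eos, at 3.30 and 2.55 against 24.3 and 22.8 CPM (-3.03 ± 0.25). Itgb8 (-5.53 ± 0.60), Itih5 (-2.82 ± 0.28), Folr4, the folate receptor 4 gene (-1.47 ± 0.10), Gpr83 (-1.25 ± 0.16) and Capg (-1.17 ± 0.19) fell, and Lag3 (-0.88 ± 0.32) did not pass the test. With each wild-type library left out, 17 to 19 of the list fell, and the 1 that rose was not called without WT CD8 2 or without WT CD4 2. Many listed genes, such as Ctla4, Icos and Il2ra, are also used by activated helper cells.

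Interferon-stimulated genes were mostly higher in WT CD8. They encode antiviral proteins and the signalling factors that induce them, and are raised by type I and type II interferon. Of 62 tested genes 57 rose and 1 fell, against 11.1% higher and 10.6% lower of all genes tested, with a median of 0.86. Without WT CD4 2 and CD4hi 1, 53 rose and 1 fell, and with 1 wild-type library left out 52 to 56 rose. Ifit3, which encodes an antiviral protein, stood at 73.5 and 65.4 against 8.35 and 8.61 CPM (3.02 ± 0.12, adjusted p = 1.27e-10). The GTPase gene Mx1 stood at 37.6 and 31.3 against 3.55 and 3.47 CPM (3.28 ± 0.18), the RNA-sensing enzyme gene Oas3 at 65.8 and 65.0 against 11.7 and 14.2 CPM (2.32 ± 0.11), the ubiquitin-like modifier gene Isg15 at 16.9 and 15.6 against 4.80 and 3.33 CPM (2.01 ± 0.22) and Ifit1 at 102 and 89.6 against 27.7 and 24.6 CPM (1.87 ± 0.10). Of the factors that drive the program, Irf7 stood at 98.9 and 91.2 against 38.2 and 30.8 CPM (1.47 ± 0.12) and Irf9 at 117 and 123 against 91.7 and 84.8 CPM (0.45 ± 0.08).

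WT CD4 lay apart from all 8 other libraries at all 58 called genes of the list, alone in 44 and together with WT CD8 in 14. It lay apart in this way at 70.3% of all genes called higher, 54.0% of those called lower and 23.2% of all genes tested. Ifit3 stood at 60.1 and 58.1 CPM in CD4hi, 83.8 and 76.8 CPM in DP and 77.9 and 84.8 CPM in CD4lo. Summed over the list, WT CD4 libraries held 4478 and 4389 CPM, and the other 8 libraries 6541 to 7193 CPM. The receptor genes Ifnar1 (0.04 ± 0.08) and Ifnar2 (0.56 ± 0.14; the call was lost without WT CD8 2 and without WT CD4 1) are given for comparison. The 1 gene that fell was Slfn8, at 26.6 and 27.0 against 133 and 141 CPM (-2.35 ± 0.10), which followed the L mark, with CD4lo at 47.6 and 43.1 CPM. Ifit2 (0.01 ± 0.10) and Slfn2 (0.01 ± 0.07) did not pass the test.

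**Figure D4:**
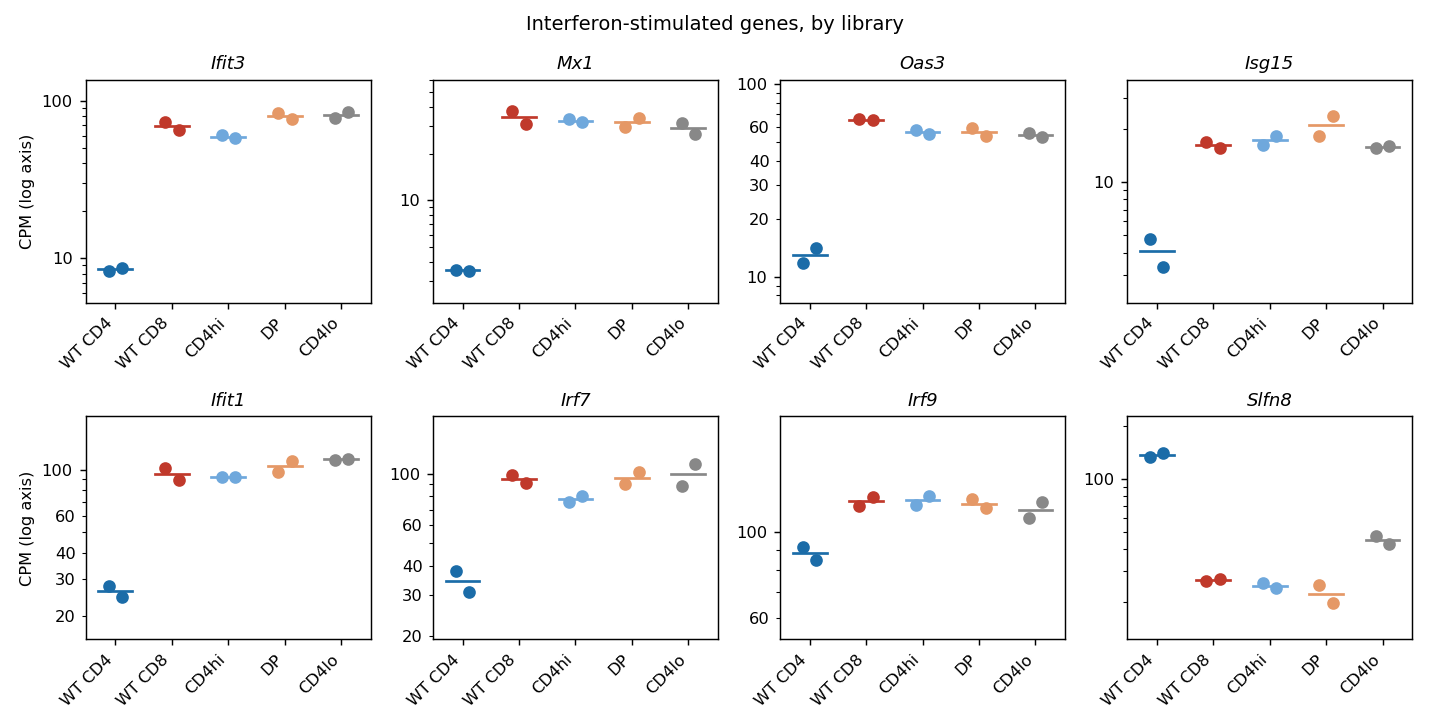
CPM on a log axis (y) of 8 interferon-stimulated genes in the 2 libraries (points) and their mean (line) of each of the 5 groups (x). In 7 of them WT CD4 lies below all other libraries, and in Slfn8 it lies above them.

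The promoters of 4 of these genes are shown because the group moved together and because interferon responses work through a known element. This is the interferon-stimulated response element, searched here as GAAA, any 2 bases and GAAA again, on both strands. All 4 promoters shown hold a match, so they are examples and do not stand for the list. Each sequence runs from 250 bases before to 50 after the gene's start, on the gene's strand, from RefSeq on build GRCm38.p6, and capitals mark matches to the element.
Ifit3: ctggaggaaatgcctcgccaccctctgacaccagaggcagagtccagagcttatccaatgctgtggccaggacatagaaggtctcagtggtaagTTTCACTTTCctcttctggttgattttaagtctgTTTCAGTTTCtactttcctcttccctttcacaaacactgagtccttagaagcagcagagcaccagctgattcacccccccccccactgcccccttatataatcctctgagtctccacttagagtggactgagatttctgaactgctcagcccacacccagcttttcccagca
Isg15: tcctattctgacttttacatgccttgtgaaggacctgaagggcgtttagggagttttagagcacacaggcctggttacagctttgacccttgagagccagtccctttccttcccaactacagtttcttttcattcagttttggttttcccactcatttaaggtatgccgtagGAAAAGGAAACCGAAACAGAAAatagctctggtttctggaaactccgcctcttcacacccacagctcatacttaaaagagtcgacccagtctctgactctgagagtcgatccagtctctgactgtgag
Oas3: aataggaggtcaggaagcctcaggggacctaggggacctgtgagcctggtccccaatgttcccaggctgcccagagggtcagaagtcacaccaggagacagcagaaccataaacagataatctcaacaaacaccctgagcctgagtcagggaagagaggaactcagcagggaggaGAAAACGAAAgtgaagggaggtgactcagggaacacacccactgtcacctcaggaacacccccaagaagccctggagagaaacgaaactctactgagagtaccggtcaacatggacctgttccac
Ifit1: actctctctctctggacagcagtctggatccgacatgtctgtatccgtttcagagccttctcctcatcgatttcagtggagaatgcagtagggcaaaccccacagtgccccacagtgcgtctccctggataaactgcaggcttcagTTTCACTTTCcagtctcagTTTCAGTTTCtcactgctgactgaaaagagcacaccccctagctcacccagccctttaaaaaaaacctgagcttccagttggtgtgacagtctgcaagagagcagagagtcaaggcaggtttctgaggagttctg
They lie at chr19:34583279-34583578 (plus strand), chr4:156200769-156201068 (minus strand), chr5:120777610-120777909 (minus strand) and chr19:34640639-34640938 (plus strand). Of the 62 tested interferon genes 44 had a promoter in the table, and 25 of these (56.8%) held at least 1 match, against 3.99% of the 27025 genes with a promoter there. Among called genes with a promoter, 8.40% of those higher and 3.68% of those lower in WT CD8 held a match. Of the 74 higher genes with a match, 23 are of the interferon list, so the 8.40% is not separate from that list. Within the interferon list the median log2 fold change was 0.93 with a match and 0.69 without. Oasl2 (2.43, and 3.05 without WT CD4 2), Irf7 (1.47) and Oasl1 (1.32) were among those with a promoter and no match. Slfn8, which fell, and Gbp3 (0.11, not called) held a match. A match is a description of the letters, and no match says only that they are not in this window.

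MHC class I and antigen processing genes, many of them also raised by interferon, gave 14 higher and 0 lower of 25 tested (median 0.34), and 7 rose without WT CD8 2 and 9 without WT CD4 2. Nlrc5, the factor that switches on MHC class I genes, stood at 354 and 337 against 260.1 and 223 CPM (0.52 ± 0.08). H2-Q6 stood at 326 and 328 against 190.3 and 186 CPM (0.80 ± 0.08) and H2-Q4 at 283 and 280.5 against 199 and 195 CPM (0.52 ± 0.07); the copies of this family are so alike that reads may be shared among them. Tapbpl (0.79 ± 0.10) and H2-T22 (0.54 ± 0.08) rose. The classical genes H2-K1 (0.10 ± 0.07) and H2-D1 (0.10 ± 0.07) and the shared light chain B2m (0.14 ± 0.06) did not pass the test.

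Genes of the naive state went both ways, 9 higher and 8 lower of 27 tested. Igfbp4, a binding protein of insulin-like growth factors, stood at 186 and 188 against 606 and 537 CPM (-1.61 ± 0.08, adjusted p = 2.01e-09) and Vipr1, the receptor of vasoactive intestinal peptide, at 54.7 and 52.1 against 131 and 139 CPM (-1.34 ± 0.08). Dapl1 stood at 87.1 and 99.3 against 45.1 and 48.4 CPM (0.998 ± 0.09), and Rapgef4 (0.80 ± 0.11) and Klf3 (0.57 ± 0.09) rose. Without WT CD8 1, 5 rose and 4 fell; without WT CD8 2 and without WT CD4 1, 5 fell; and without WT CD4 2, 5 rose. Memory and activation genes gave 12 higher and 5 lower of 27 (median 0.30). S100a4 stood at 0.388 and 0.672 against 6.22 and 3.47 CPM (-3.05 ± 0.44), and Lgals1 (-0.69 ± 0.15) and Vim (-0.41 ± 0.07) fell, while Ahnak rose (0.47 ± 0.08). Cd69 (-0.07 ± 0.09) did not pass the test.

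Immediate early genes went both ways. Of the Egr genes, induced by T cell receptor signals through ERK, these fell: Egr1 stood at 41.3 and 47.6 against 72.9 and 73.8 CPM (-0.71 ± 0.09), Egr2 at 10.48 and 10.2 against 24.9 and 20.1 CPM (-1.11 ± 0.16) and Egr3 at 7.95 and 8.20 against 14.7 and 17.8 CPM (-1.01 ± 0.21). The AP-1 genes that rose included these: Fos stood at 76.6 and 86.7 against 43.0 and 45.8 CPM (0.88 ± 0.11), Jun at 202 and 200.4 against 147 and 133 CPM (0.52 ± 0.08) and Junb at 228 and 229.8 against 171 and 158 CPM (0.48 ± 0.09), with WT CD4 below all 8 other libraries at each. The stress phosphatase subunit gene Ppp1r15a rose (0.77 ± 0.09) and Rgs1 fell (-0.69 ± 0.09). In all 7 of 27 tested genes rose, 4 without WT CD8 1, and 6 fell.

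Smaller lists held single genes of large change. Of the Bcl2 family and death receptors 5 rose and 1 fell of 22, led by the pro-apoptotic gene Pmaip1, which encodes Noxa, at 13.6 and 11.8 against 2.49 and 1.81 CPM (2.57 ± 0.24); Bcl2 rose (0.33 ± 0.07) and Bcl2l11, which encodes Bim (0.13 ± 0.09), did not pass the test. Of the list, 3 rose without WT CD8 1, without WT CD8 2 and without WT CD4 1, and the 1 that fell was not called without WT CD8 2. Of 8 Gimap GTPase genes 3 rose and 2 fell, with Gimap7 at 119.5 and 123 against 58.1 and 52.0 CPM (1.14 ± 0.08) and Gimap5 rising (0.46 ± 0.11); none fell without WT CD8 1, WT CD8 2 or WT CD4 1 and 1 without WT CD4 2. Of 36 chromatin enzymes 4 rose (11.1%, the same share as of all genes tested) and 6 fell (16.7%, against 10.6% of all genes). Among them were the histone deacetylase genes Hdac7, higher at 165 and 163 against 106 and 102 CPM (0.65 ± 0.07), and Hdac1, lower at 70.8 and 62.4 against 105 and 101 CPM (-0.64 ± 0.10). Chd3 (-0.53 ± 0.07) and Dnmt3a (-0.42 ± 0.08) fell and Tet2 (0.42 ± 0.09) and Hdac4 (0.46 ± 0.08) rose.

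Of 25 glycolysis genes 5 rose (20%) and 6 fell (24%). Pkm (-0.59 ± 0.10), Gapdh (-0.48 ± 0.09) and Ldhb (-0.97 ± 0.19) fell, and the lactate carrier gene Slc16a1 (0.96 ± 0.15) and Pfkp (0.44 ± 0.08) rose. Of cholesterol and lipid synthesis genes 2 rose (6.25%) and 8 fell (25%) of 32. The desaturase gene Scd1 rose, from 1.42 and 3.89 CPM in WT CD4 to 21.1 and 27.0 CPM in WT CD8 (3.12 ± 0.32; 4.08 without WT CD4 2). These counts rest on single libraries: 3, 2 and 3 glycolysis genes rose without WT CD8 1, WT CD8 2 and WT CD4 1, 3 fell without WT CD8 2, and 2, 2, 5 and 5 lipid genes fell without WT CD8 1, WT CD8 2, WT CD4 1 and WT CD4 2. Of 29 cell cycle genes 8 rose (27.6%) and 1 fell (3.45%). The replication helicase genes Mcm4 (0.55 ± 0.09), Mcm5 (0.72 ± 0.13) and Mcm6 (0.65 ± 0.09) and the cyclin Ccne1 (1.44 ± 0.24) rose, Mcm2 (-0.48 ± 0.09) fell, and Mki67, a marker of dividing cells (0.33 ± 0.13), did not pass the test. Of the list, 5, 4 and 5 rose without WT CD8 1, WT CD8 2 and WT CD4 1, and 2 fell without WT CD4 1.

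Cytoplasmic ribosomal protein genes were slightly higher in WT CD8, 45 of 81 tested, with 4 lower and a median of 0.28. Without WT CD8 2, 29 rose, and 2 fell without WT CD8 1 and without WT CD8 2. Their summed level was 69880 and 69740 CPM in WT CD8, 60250 and 55220 CPM in WT CD4 and 61010 to 74000 CPM in the 6 others. Rpl29 went the other way, at 127 and 173 against 621 and 591 CPM (-2.01 ± 0.16), with 127 to 191 CPM in all 8 libraries other than WT CD4. The L mark was followed by 12.6% of all called genes and 4.84% of all tested. Ribosomal protein pseudogenes share sequence with the ribosomal protein genes. They gave 26 higher and 6 lower of 70 (more lower without WT CD4 2), and 29 of these followed the L mark. Rpl34-ps1 was one of them, at 188 and 170.4 against 5.33 and 2.64 CPM (5.53 ± 0.17), while Rpl34 stood at 491 and 471 against 681 and 609 CPM (-0.42 ± 0.08; not called without WT CD8 2). Beta variable segments of the T cell receptor gave 1 higher and 8 lower of 18 (median -0.51), and 5 lower without WT CD8 1, WT CD8 2 or WT CD4 1. The 1 higher segment was not called in these 3 fits, and 2 were higher without WT CD4 2. Of 36 alpha segments 1 was higher and 5 were lower (13.9%, against 10.6% of all genes tested), and the share called was 16.7% against 21.7%. Without WT CD8 1 and without WT CD8 2, 3 of them were lower, and none was higher without WT CD8 2. Of 9 tested genes of recent thymic emigrants 1 rose and 5 fell, with 3 lower without WT CD8 2 and without WT CD4 1.

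Markers of other cells were measured beside these results. Of 17 tested B cell markers 16 were higher in WT CD8 (median 2.45), and their summed level was 705.8 and 739.5 CPM in WT CD8, 298.4 and 356.0 CPM in WT CD4 and 293.4 to 630.9 CPM in the 6 others. Cd79a, a B cell receptor chain, stood at 21.0 and 22.04 against 3.38 and 3.75 CPM (2.58 ± 0.25) and Cd74, the MHC class II invariant chain, at 112 and 127 against 21.0 and 30.3 CPM (2.21 ± 0.17). Ms4a1, the CD20 gene, stood at 18.6 and 18.0 against 1.42 and 2.92 CPM (3.02 ± 0.32; 3.67 without WT CD4 2). DP libraries also held more of them than CD4hi, 9 of 17 called. For 11 of the 16, WT CD8 alone lay outside the range of the other libraries, as it did for 16.45% of all genes called higher. The part of these cells in the other results was not tested. Macrophage and monocyte markers gave 3 higher of 12 (5 without WT CD4 2), with summed levels of 51.6 and 52.1 CPM in WT CD8 and 20.1 and 29.7 CPM in WT CD4; Lyz2 stood at 21.0 and 21.9 against 6.22 and 7.64 CPM (1.61 ± 0.16) and Csf1r at 1.75 and 1.48 against 0.888 and 1.81 CPM. Dendritic cell markers gave 3 higher of 7 (47.1 and 41.8 against 17.8 and 23.6 CPM). Gamma delta T cell markers summed to 7.18 and 6.45 CPM in WT CD8 and 1.42 and 5.14 CPM in WT CD4, and plasma cell markers to 22.3 and 22.98 against 38.4 and 38.1 CPM. Neutrophil markers summed to 0.582 and 0.134 CPM in WT CD8 and 1.78 and 4.03 CPM in WT CD4, and none of 7 erythroid markers was called. Of 12 pan T cell markers 1 rose and 7 fell, with sums of 3406 and 3316 CPM in WT CD8 and 4113 and 3683 CPM in WT CD4, with 4 lower without WT CD8 1 and without WT CD8 2, and Y-linked genes such as Ddx3y (119.9 and 131 against 108 and 102 CPM) were present in all 4 libraries.

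DP against CD4hi gives a second pair of cells with and without CD8, from OB11 mice, with no L mark on either side and no library in common with the wild-type pair. Of 12193 genes 198 were called there (1.62%), 93 higher (0.763%) and 105 lower (0.861%) in DP, and 86 (0.705%) with at least a 2-fold difference. Of the 93 higher genes 54 (58.1%) were also higher in WT CD8 than in WT CD4, against 11.1% of all genes tested. These 54 are 3.98% of the 1356. Of the 105 lower genes 69 (65.7%) were also lower in WT CD8, against 10.6% of all genes tested. These 69 are 5.33% of the 1295. The other way went 19 genes. B cell markers were higher in both pairs, 16 of 17 in WT CD8 and 9 of 17 in DP. Macrophage and monocyte markers gave 3 higher of 12 in each pair. The part of such cells in the shared genes was not tested. Over the 2651 genes called between the wild-type groups the correlation of both fold changes was 0.529, a description across genes, which are not independent replicates. Of the 1356 higher genes 60.4%, and of the 1295 lower genes 68.6%, had the same sign in DP against CD4hi.

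**Figure D5:**
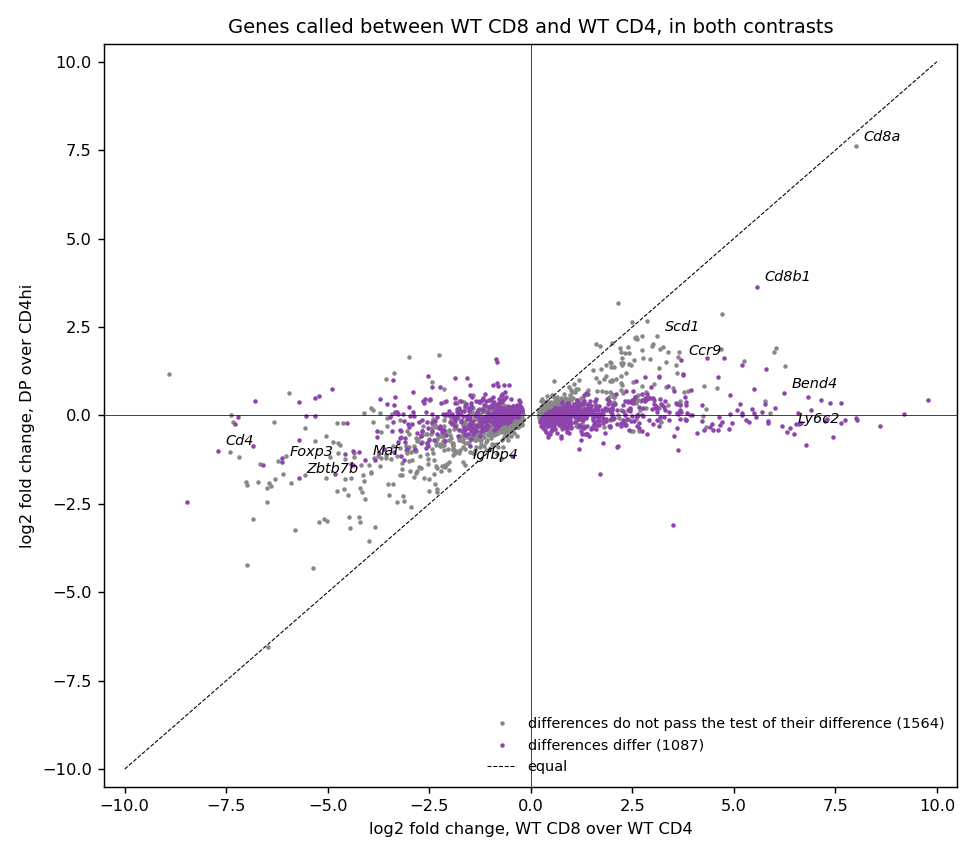
Log2 fold change of DP over CD4hi (y axis) against that of WT CD8 over WT CD4 (x axis) for the 2651 genes called between the wild-type groups; purple points are 1087 genes whose difference of differences passed the test, and the dashed line marks equal changes. Cd8a lies near the line, and most genes lie near zero on the y axis.

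The difference of the differences was tested in the same fit and called 1156 of 12193 genes (9.48%), 671 with a higher value in the wild-type pair (5.5%) and 485 with a lower one (3.98%), and 4.65% were called with at least a 2-fold difference. Cd8a was not called, with 8.01 ± 0.23 in the wild-type pair and 7.61 ± 0.25 in DP against CD4hi (adjusted p of the difference = 0.74). Cd8b1 was called (5.57 ± 0.12 and 3.63 ± 0.11, adjusted p of the difference = 2.6e-06). Zbtb7b fell by 5.72 on the log2 scale in the wild-type pair and also fell in the other (-1.77 ± 0.14), from 27.7 and 28.0 CPM in CD4hi to 7.05 and 9.18 CPM in DP (adjusted p of the difference = 3.56e-08). Ccr9 rose in both, by 3.70 ± 0.13 and 1.55 ± 0.11 (adjusted p of the difference = 1.55e-06), and so did Nkg7 (5.79 ± 0.23 and 1.31 ± 0.16) and Klrk1 (5.21 ± 0.29 and 1.43 ± 0.24). Igfbp4 fell in both (-1.61 ± 0.08 and -1.39 ± 0.08), and the test of the difference gave an adjusted p of 0.251. Cd5 (-0.95 ± 0.08 and -0.82 ± 0.08, 0.547), Icos (-0.80 ± 0.10 and -0.90 ± 0.09, 0.729) and Rgs1 (-0.69 ± 0.09 and -0.88 ± 0.08, 0.373), each with the adjusted p of the difference last, fell in both as well. Of the 20 regulatory T cell genes 12 were also lower in DP. Of the 62 interferon genes 2 were higher in DP, and for 46 the difference of differences was called. Eomes (0.32 ± 0.13), Runx3 (0.23 ± 0.08), Cd40lg (-0.44 ± 0.12) and Cmah (0.26 ± 0.08) did not pass the test in DP against CD4hi, and the difference from the wild-type pair was called for each.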

How the data were processed

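RNA of sorted naive T cells was sequenced in 10 libraries, 2 in each of 5 groups read from the sample titles. Per the labels, the authors used total RNA, a directional kit and depletion of ribosomal cDNA; per the submitters' processing notes, TopHat2 and HTSeq were used with build mm10. Versions, the gene annotation and the strand setting are not given in the sources used here, so overlapping and antisense genes are uncertain. The deposited table holds raw counts for 34573 gene symbols, 25 of them turned into dates.

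Low genes were removed with filterByExpr by group (12193 genes stayed, with 99.7% of counts). TMM gave the scaling, and the genes were fitted over all 10 libraries in 1 quasi-likelihood model of edgeR 4.0.16 in R 4.3.3, with 5 residual degrees of freedom. Tests were two-sided with Benjamini-Hochberg adjustment at 0.05; an exact permutation test of 2 against 2 cannot go below p = 0.333. Alternatives were DESeq2 1.42.0 and its size factors, no filter, only the compared libraries, no mitochondrial genes, a replicate block and each library left out; leaving out both doubtful libraries and an expression minimum were added after seeing the data. The counts have no molecular identifiers, so bounds cover counting error only. The chi-square between both libraries averaged 3.60 per gene in WT CD8 and 15.1 in WT CD4, over genes with at least 20 counts. The spread shared by all groups in the fit does not follow this difference between the wild-type groups.

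The members and gene lists were chosen with earlier results of these data known. Genes were named by rule: the 15 highest and 15 lowest called genes of at least 3 in average log2 CPM without overlap, leaving out predicted models, receptor segments, ribosomal and mitochondrially encoded genes and date symbols, then list members of largest change or with a role given; some list members given as examples were chosen after their values were seen. Some genes that the rule names are not reported here. Sequences come from RefSeq on GRCm38.p6.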

Additional observations from a re-analysis of the deposited data

Results flagged for a closer look

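For 7 genes of the naming rule, the fold change between WT CD8 and WT CD4 differed from that between DP and CD4hi, by a test of the difference itself in the edgeR fit, and their differences were among the largest. Values are the log2 fold change in the wild-type pair less that in the OB11 pair, with n = 2 per group. The difference was 9.36 for the histone gene Hist1h2al, 6.8 for Pianp, 6.75 for Ly6c2, 6.73 for Trim30c and 5.62 for Bend4, each far higher in WT CD8 than in WT CD4 and not called between DP and CD4hi. At each of these genes WT CD4 lay below all 8 other libraries. CD4hi held more Pianp (12.2 and 16.3 CPM) than WT CD8 (7.57 and 10.3 CPM). The difference was -6.7 for Cd4, a gene of the sort, which fell in both pairs. The value of Hist1h2al depends on the prior count of the fit, since the WT CD4 libraries hold 0 counts of it. For U1, a spliceosomal RNA symbol, it was -5.59 (adjusted p = 0.030), from -2.87 in the wild-type pair (adjusted p = 0.0725) and 2.72 in the OB11 pair, neither of which passed the test. That call was lost by DESeq2 (adjusted p = 0.0882), with a replicate block (0.0561) and in 5 fits that left out 1 library, and the difference was -2.54 without DP 1.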

How the results depend on the processing

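The count of 2651 genes between WT CD8 and WT CD4 was 1758 by DESeq2, of which 1752 were among the 2651, and 1411 to 2317 with 1 wild-type library left out. DP against CD4hi called 198 genes, 131 by DESeq2, 345 with no filter on low counts and 69 to 122 with 1 library left out. The difference of differences called 1156 genes, 741 by DESeq2 and 710 to 1284 with 1 library left out, with 710 without WT CD8 2, 750 without DP 1 and 738 without DP 2. A replicate block gave 2417, 156 and 1032 genes for these 3 tests. Whether same-numbered libraries share more than a number was not established. Their deviations from the group mean correlated between -0.548, for WT CD4 with CD4hi, and 0.126. Without WT CD4 2, the fold change of 5 of the 2651 genes had the opposite sign, whether or not it passed the test. The cause of these shifts was not tested.

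No filter on low counts moved the median log2 fold change of all genes to -0.284. Where an arm keeps 1 library, that library is assumed to vary like the other groups. Genes of a few counts, such as Hhex, Klrc1 and Ccr8, carry a large counting error.

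Of the genes named as not called, 8 had fold changes near zero whose sign depended on the setting. With no filter it was 0.003828 for Foxo1 and 0.01941 for Satb1. With 1 library left out it ranged from -0.01444 to 0.1001 for Bach2, from -0.4325 to 0.02787 for Cd3g, from -0.1303 to 0.02062 for Cd69, from -0.1621 to 0.8299 for Csf1r, from -0.1497 to 0.07565 for Foxo1, from -0.06011 to 0.12 for Ifit2, from -0.09566 to 0.04987 for Satb1 and from -0.3629 to 0.5483 for Tyrobp.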
